A study of Triticum aestivum with 4 samples.

Results

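Flag leaves, the top leaves of the wheat stem and a main supplier of the filling grain, were profiled on 4 single-colour Affymetrix wheat arrays in cultivar TAM 107, 2 from plants held for 1 h at 40 °C and 2 from control plants. All plants had grown in the field, had been potted about a week before flowering, and were sampled around day 10 after pollination. Only for heated plants do the labels mention a growth chamber, and its effect and that of temperature cannot be told apart. Separate plants are not stated for the 2 replicates within each group, and the spread between them may be technical. Described here are 108 of the 61115 wheat probe sets: those with a set minimum signal in control leaves and a signal at least 8-fold higher in heat. A probe set belonged if its MAS5 signal, a linear fluorescence value with 1 figure per probe set and array, was at least 200 on both control arrays and if its lower heat value was at least 8 times its higher control value. Array controls were left out, as was a large cluster of 59 probe sets, 0 of which met both limits. The members were thus chosen by their signal on these same 4 arrays, and their difference between heat and control is given as a description, with no test.

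When plant tissue warms abruptly, proteins begin to unfold, and heat shock transcription factors are released to bind short repeated elements in the promoters of their targets. The products include molecular chaperones: small heat shock proteins hold unfolding proteins, ATP-driven chaperones of the larger classes refold them, and disaggregases pull clumps apart. Many such genes are nearly silent in unstressed leaves, while others have a constitutive level that heat raises further. This is background and not a statement on the members. The platform annotation pairs 18 of the 108 members with 14 genes, all 14 were found in the RefSeq gene table for the IWGSC CS RefSeq v2.1 assembly, and 0 of them carry a name beyond a LOC number there. It gives a gene to 16.7% of the members and to 3.51% of all probe sets with a signal of at least 200 on both control arrays. The other 90 members have no gene in that annotation. What the members encode is therefore not stated for any of them.

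The median member had a signal of 17360 and 16997 on the heat arrays, against 634 and 612 on the control arrays. Group means ran from 2202 to 51694 in heat and from 207 to 4356 in control. The median member was brighter than 99.0% of the wheat probe sets on the heat arrays and than 80.2% on the control arrays. On each heat array 43 of them were among the 500 brightest wheat probe sets, and on each control array 0 were. A signal above 10000 was reached by 68 members on both heat arrays and by 0 on either control array. Over all wheat probe sets, 1115 exceeded 10000 on both heat arrays and 933 on both control arrays. The fold limit of the rule and the highest heat signal of 62439 leave no room for a member above 10000 in control. Both control counts of 0 were therefore set by the rule. Together the members held 3.65% and 3.67% of the summed wheat signal on the heat arrays, and 0.221% and 0.216% on the control arrays. The rule required a gap in every member, so nothing is read from the higher share and ranks in heat. A change in transcript per cell and a change in the cell types that make up the leaf sample cannot be told apart in such bulk RNA.

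**Figure D1:**
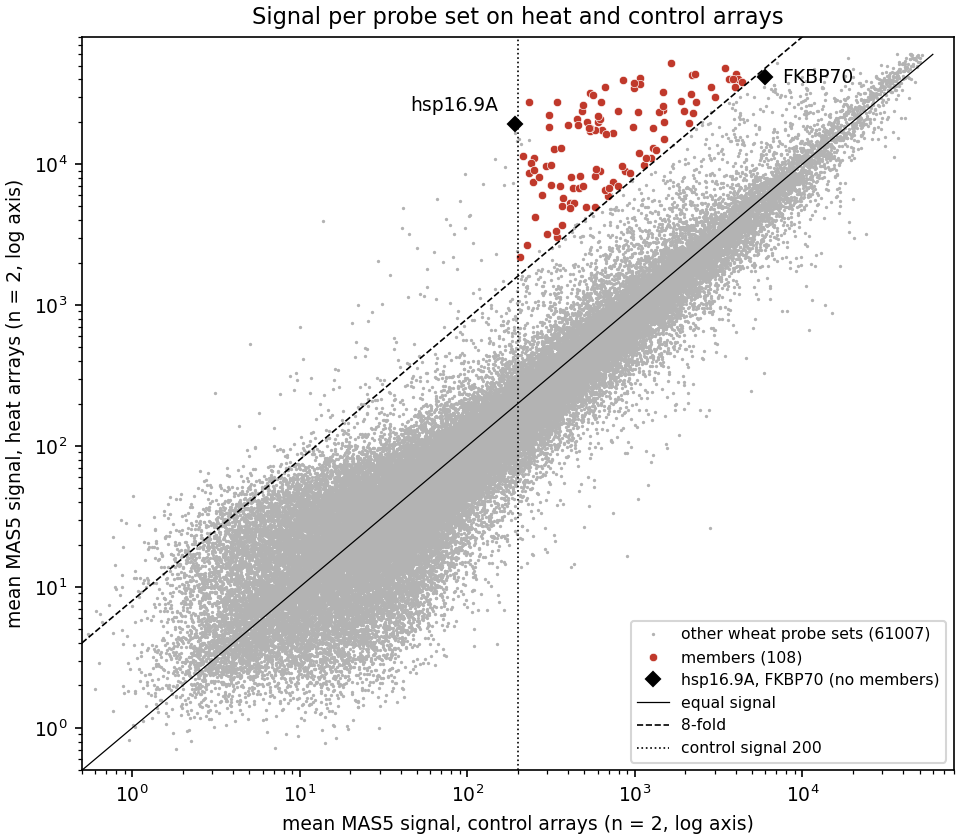
Mean MAS5 signal of each wheat probe set on the heat arrays (vertical, log axis, n = 2) against the control arrays (horizontal, log axis, n = 2). The 108 members (red) lie above the dashed 8-fold line and right of the dotted line at a control signal of 200; hsp16.9A falls just left of that line and FKBP70 just under the 8-fold line.

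The ratio of the lower heat value to the higher control value ran from 8.06 to 110 with a median of 15.8, and its middle range, between the quartiles, was 10.4 to 33.2. Of the 108 members, 84 reached 10-fold by this ratio, 52 reached 16-fold, 29 reached 32-fold and 3 reached 64-fold. The median log2 difference, heat minus control, was 4.10 over the members and -0.15 over all 30558 probe sets bright enough to test. In the limma fit across those probe sets 108 of 108 members were called higher at an adjusted p below 0.05, where 14.2% of all tested probe sets were called higher. The rule used the same arrays, so nothing is read from that count. With 2 arrays against 2, an exact two-sided permutation test of a single value cannot give a p below 0.333. Array-wide, 37.1% were called in either direction, 4337 (14.2%) higher and 6992 (22.9%) lower, a balance that median centring moved to 5041 and 4951; that centring moved the median log2 difference over all tested probe sets to -0.03.

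At 0.539% of the 20036 probe sets with a signal of at least 200 on both control arrays, the members are a small group. With the groups exchanged, so that both heat values were at least 200 and both control values at least 8 times both heat values, 10 probe sets qualified. With the limit of 200 set on the control values, and falls to a dim heat signal let in, 41 did. A further 168 probe sets reached the same 8-fold limit from a control signal under 200 on at least 1 array.

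The highest ratio was that of LOC543477 (probe set Ta.201.1.S1_at), which had 27539.5 and 27612 in heat, against 251 and 217 in control. The heat values of this gene differed by less than 1.01-fold between replicates, and its means stood 118-fold apart. LOC542846 was measured by 2 members with different cluster numbers. Its probe set Ta.261.1.S1_at had 32190.3 and 31445 in heat, against 595 and 478 in control, a 59.3-fold ratio of means. Its probe set Ta.28758.1.S1_at had 20766 and 20935 in heat, against 627 and 607 in control, a 33.8-fold ratio of means. Both members of the gene lay above 30-fold, and the 8-fold gap on each was a condition of the rule.

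LOC543416 (Ta.203.1.S1_at) had 39249 and 40155 in heat, against 889 and 817 in control, a 46.5-fold ratio of means. LOC542835 (Ta.256.1.S1_at) had 21827 and 19985 in heat, against 418 and 484 in control, and a ratio of 46.4. LOC543404 (Ta.28083.1.S1_at) had 36928 and 37670.3 in heat, against 951 and 1085 in control, and a ratio of 36.6. These genes, with LOC543477 and LOC542846, are the 5 annotated genes with a member above 32-fold. For LOC543404 there is a second probe set, TaAffx.51843.1.S1_at, with 256.2 and 280.3 in heat, against 24.3 and 60.1 in control. It was no member. Both its control values lay below 69.2, the mean signal needed to enter the limma fit, which it passed through its heat signal. It was called higher there, but that call is not read and no size is given for its difference.

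LOC543421 (Ta.22973.1.S1_x_at) had 32824 and 32153 in heat, against 1380 and 1546 in control, a 22.2-fold ratio of means. LOC543368 (Ta.639.1.S1_at) had 43527 and 43104 in heat, against 2241 and 2339 in control, and a ratio of 18.9. LOC542836 (Ta.204.1.S1_at) had 23613 and 25044 in heat, against 1485 and 1471 in control, and a ratio of 16.5. In these genes the replicates of a group differed by at most 1.12-fold; the gap between heat and control is what chose every member.

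The remaining annotated genes lay nearer the limit. LOC780658 had 27493 and 28119 in heat, against 1899 and 1882 in control, on Ta.4537.1.S1_at, a 14.7-fold ratio of means. Its second member, Ta.4537.2.S1_a_at, had 6248 and 6755 in heat, against 639 and 682 in control, and a ratio of 9.84. The gene's members thus differ in the size of the ratio; their shared direction was set by the rule. LOC543244 (Ta.217.1.S1_x_at) had 39988 and 40361 in heat, against 3785 and 3871 in control, and a ratio of 10.5. LOC543445 (Ta.24150.1.S1_at) had 15319.7 and 14859 in heat, against 1484 and 1515 in control, and a ratio of 10.1. LOC542820 (Ta.24515.1.S1_at) had 34220.1 and 36108 in heat, against 4062 and 3906 in control, and a ratio of 8.83, the lowest among genes with 1 probe set. LOC542820 and LOC543244 were among the 5 members with the highest control signal.

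LOC780664 shows how the limit divides the probe sets of a gene. Its members Ta.5818.3.S1_at and Ta.5818.3.S1_x_at had ratios of means of 14.2 and 9.45. Its other probe sets, Ta.5818.1.S1_at with 17417 and 18188 in heat, against 2343 and 2319 in control, and Ta.5818.1.S1_a_at, had ratios of 7.64 and 6.53 and fell short. Both of these non-members had control signals over 200 and were called higher in limma, where 17.9% of tested probe sets with that control signal were. LOC780660 was seen by members TaAffx.2456.1.S1_at (ratio 11.8) and TaAffx.2456.2.S1_s_at (8.77). Its other probe set, TaAffx.2456.2.S1_at, had 222 and 201 in heat, against 43.8 and 13.7 in control, and it too entered the fit only through its heat signal. Of the 22 probe sets annotated to the 14 genes, 18 were members and 4 were not, of which the pair for LOC780664 was bright enough in control for its call to be read. In the RefSeq gene order 13 of the 14 genes have a chromosome, and no 2 of them on the same chromosome stood fewer than 621 genes apart.

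**Figure D2:**
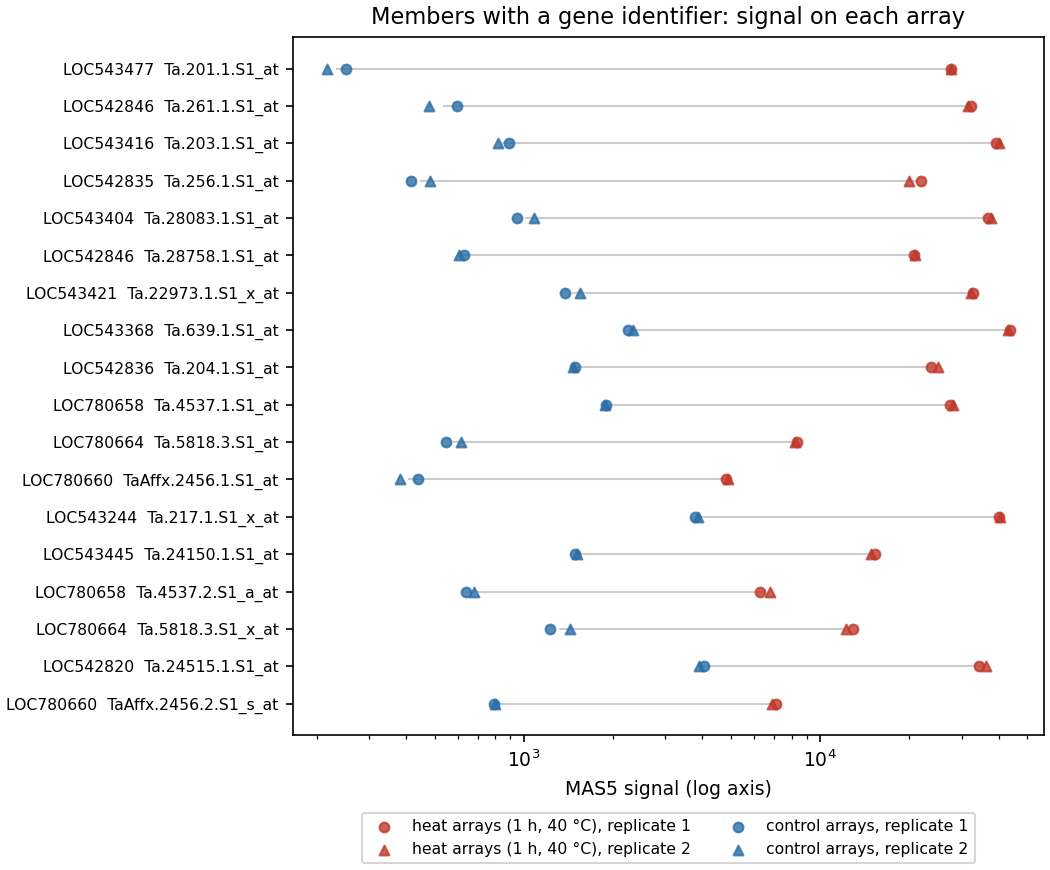
MAS5 signal (log axis) of the 18 members with a gene identifier on each array, sorted by the ratio of group means, with heat arrays in red and control arrays in blue. Circles are replicate 1 and triangles replicate 2; the gap between heat and control, which the rule required, runs from 118-fold for LOC543477 at the top to 8.77-fold for LOC780660 at the bottom.

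Among the 90 members without a gene, the highest ratios of the lower heat to the higher control value were 71.8 for Ta.8714.1.S1_at, 65.8 for Ta.8665.1.S1_at and 57.1 for TaAffx.108879.1.S1_s_at. Ta.8714.1.S1_at had 25917 and 28818 in heat, against 325 and 361 in control. Ta.8665.1.S1_at had 21853 and 22629 in heat, against 282 and 332 in control. Next came TaAffx.18332.1.S1_at (52.5), TaAffx.34482.1.S1_at (52.0) and TaAffx.51944.1.S1_x_at (51.3). Together with LOC543477 and Ta.261.1.S1_at of LOC542846 they are the 8 members with the highest ratio. TaAffx.18332.1.S1_at had the closest replicates of these, at 34938 and 34936 in heat, against 665 and 662 in control.

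The brightest member in heat was Ta.202.1.S1_at, with 51716 and 51673 in heat, against 1645 and 1649 in control, a 31.4-fold ratio of means. Ta.27661.1.S1_at had 47960.2 and 48324 in heat, against 3452 and 3451 in control, and a ratio of 13.9. Ta.12180.1.S1_at had 42175 and 45246 in heat, against 4012 and 4059.9 in control, and a ratio of 10.8. The brightest in control was Ta.734.1.S1_at, with 38976 and 37979.8 in heat, against 4208 and 4503 in control, and a ratio of 8.83. The highest signal of any probe set was 62439 and 62032 on the heat arrays, against 52311 and 52772 on the control arrays.

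Set against the highest signal seen on a heat array, a control signal of 2000 would give 31.2-fold and a control signal of 200 would give 312-fold. This is arithmetic on the observed values, and no ceiling of the scanner was measured. The 15 members with a mean control signal of at least 2000 had ratios of the lower heat to the higher control value of 8.42 to 19.1 with a median of 10.4. The 20 with 1000 to 2000 had a median of 13.9, the 33 with 500 to 1000 a median of 21.8, and the 40 with 200 to 500 a median of 22.9 and a highest value of 110. As a share of all probe sets in the same class of control signal, members made up 0.284%, 0.551%, 0.707% and 0.619%, in the same order. The control values that set the class also divide the ratio, so no trend is read from these medians. Whether the bright members are held down by the range was not tested.

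**Figure D3:**
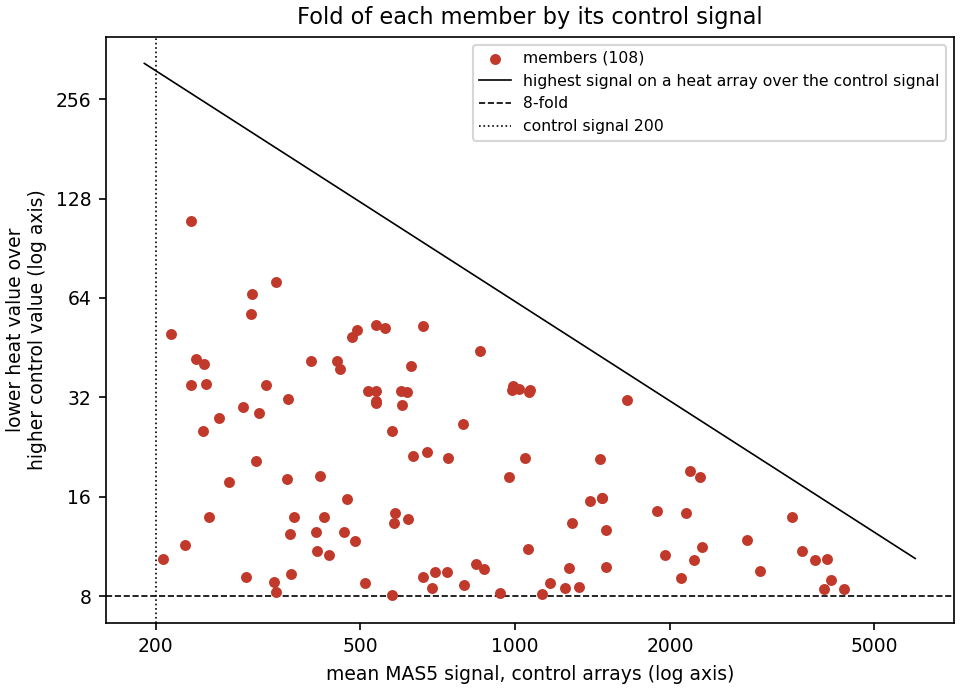
Ratio of the lower heat value to the higher control value (log axis) of the 108 members against their mean control signal (log axis). The solid line marks the ratio at which the highest signal on a heat array would be reached; the 15 members with a control signal of 2000 or more stay between 8.42 and 19.1.

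Replicates of the members lay close. The higher heat value exceeded the lower by a median of 1.04-fold and at most 1.27-fold, and the higher control value exceeded the lower by a median of 1.09-fold and at most 1.73-fold. Non-members of like brightness had medians of 1.04-fold in heat (1042 probe sets) and 1.09-fold in control (7592 probe sets). Heat replicate 1 was above heat replicate 2 in 46 of 108 members, and control replicate 1 above control replicate 2 in 56. Over all probe sets with a control signal of at least 200 the shares were 48.2% and 48.5%, in the same order. The member whose heat values differed most was Ta.12076.1.S1_at, with 3722 and 4725 in heat, against 268 and 240.2 in control. It was followed by TaAffx.39438.1.A1_at (1.24-fold) and TaAffx.24957.1.S1_at (1.18-fold). The control values differed most in Ta.14095.1.S1_at, with 17819 and 17012 in heat, against 803 and 464 in control, so that its higher heat value stood 22.2-fold above one control array and 38.4-fold above the other. Ta.12225.3.S1_a_at and Ta.2934.2.S1_a_at, at 1.41-fold each, came next.

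Probe sets of this array carry a cluster number in their identifier, and a cluster gathers similar transcripts. Wheat is hexaploid, so near-identical copies of a gene from its 3 subgenomes can be reported together. Suffixes _a_at, _s_at and _x_at stand for shared probe sets, which may detect more than 1 transcript. The 108 members came from 87 clusters and 102 target sequences, and 72 clusters gave 1 member each. Shared probe sets made up 33.3% of the members and 36.8% of all probe sets with a control signal of at least 200. Members are therefore not 108 separate genes.

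In 15 clusters 2 or more probe sets were members, 36 in all. The ratio of means differed between members of a cluster by a median of 1.34-fold and at most 2.59-fold. The 5 members of cluster Ta.1274 had ratios of 9.69 to 14.5, the 3 of Ta.12225 had 29.99 to 47.0, and the 2 of Ta.9140 had 34.5 and 34.8. The widest spread was in Ta.681, where Ta.681.1.S1_x_at had 9762 and 10037 in heat, against 294 and 339 in control, a 31.2-fold ratio, and the 3 probe sets numbered Ta.681.2 had 12.1 to 14.0. The remaining clusters with 2 members were Ta.2822 (31.8 and 32.9), Ta.6111 (33.9 and 41.4), Ta.2934 (22.4 and 30.2), Ta.9115 (17.5 and 22.4), Ta.9424 (11.3 and 15.9), Ta.8571 (9.77 and 10.6), Ta.9544 (8.87 and 9.72) and Ta.21335 (9.24 and 9.34), beside the clusters of LOC780658, LOC780664 and LOC780660 given above. Members of a cluster can share target transcripts and are not independent measurements of one gene.

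The clusters of the members held 42 further wheat probe sets, in 25 of the 87 clusters, that the rule did not take. Their median log2 difference, heat minus control, was 2.50, and 3 of them lay below 0. In the limma fit over all wheat probe sets without a brightness filter, 31 of the 42 were called higher and 0 lower, where 6.42% of all were called higher. Of the 34 bright enough for the filtered fit 33 were called higher, although some passed the filter through their heat signal. Measured without that help, 17 of them, in 9 clusters, had a signal of at least 200 on both control arrays; 17 of the 17 were called higher, against 17.9% of all tested probe sets at that control signal. Their log2 differences ran from 0.54 to 3.07, and the rule itself left out any that met its 8-fold limit. These probe sets come from the same arrays, and some are named for the same target sequence as a member. Examples are Ta.20909.2.S1_x_at beside the member Ta.20909.2.S1_s_at, and Ta.21335.1.S1_a_at beside the member Ta.21335.1.S1_at. The further probe sets may also cross-hybridise with the members' transcripts, so they are no independent replicate.

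The lowest of these 17 was Ta.20909.1.S1_a_at, with 40461 and 40654 in heat, against 27169.6 and 28566 in control (log2 0.54 ± 0.05 SE, adjusted p = 0.000121 in limma). Its cluster also holds the member Ta.20909.2.S1_s_at, with 9914 and 9806 in heat, against 1045 and 1206 in control. Probe sets of this cluster thus differed widely in the size of their difference. Another 8 probe sets in 5 clusters passed the 8-fold limit and missed the rule only through a control signal under 200 on at least 1 array. A dim control signal raises a ratio, so theirs are not ranked against those of the members. In cluster Ta.6123 the member Ta.6123.1.A1_s_at had 43026 and 39174 in heat, against 1180.4 and 951 in control, while Ta.6123.1.A1_at had 15409.7 and 14904 in heat, against 191 and 218 in control. The 1 tested probe set without a call was Ta.24120.1.S1_at, with 62.8 and 97.6 in heat, against 79.0 and 72.5 in control. The 8 too dim to test had signals of 1.97 to 148, and the 3 values below 0 were all among them.

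**Figure D4:**
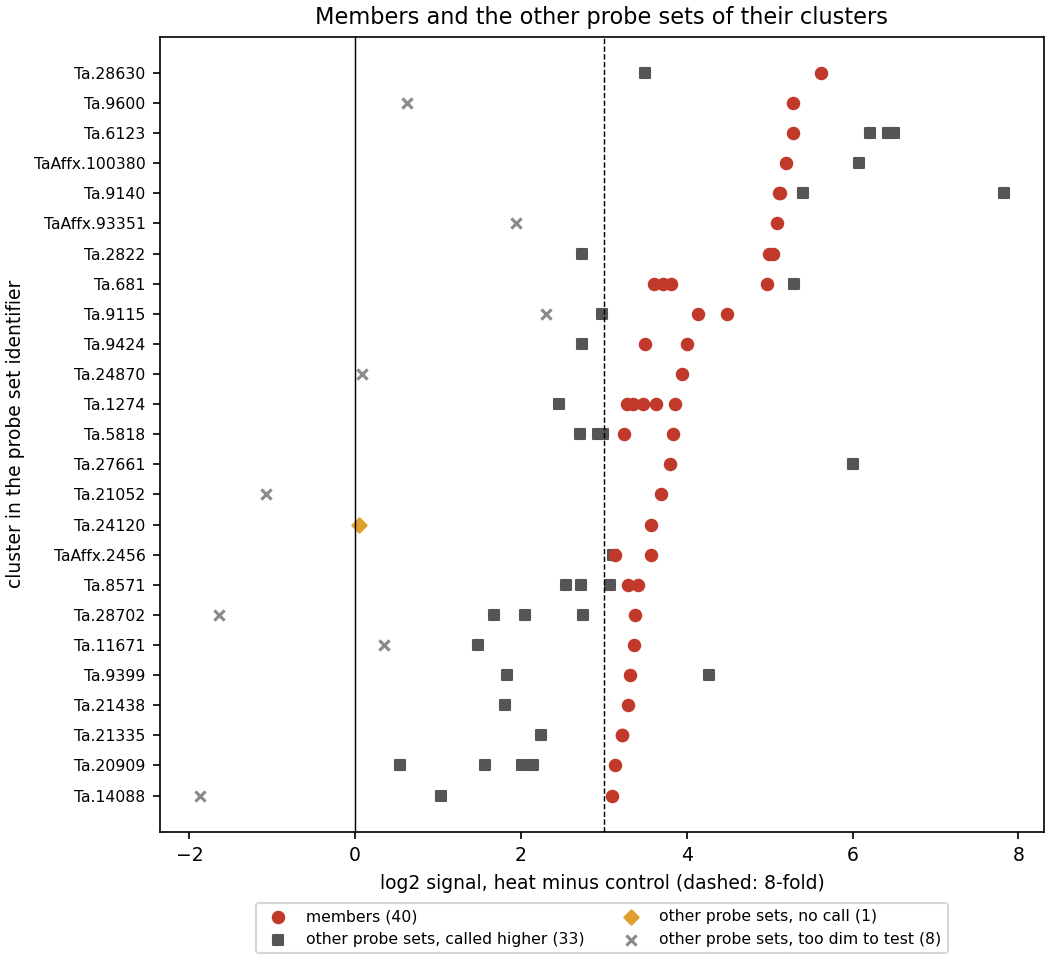
Log2 signal difference, heat minus control, for the 25 clusters that hold both members (red, 40 probe sets) and other probe sets (33 called higher, 1 with no call, 8 too dim to test). The dashed line marks 8-fold; squares right of their cluster's members have control signals under 200 on at least 1 array, down to 3.09 in Ta.9140, and their place on the axis is uncertain.

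The limits cut through a continuous range. Just inside the 8-fold limit stood Ta.14088.1.S1_x_at (8.06), Ta.20909.2.S1_s_at (8.13) and Ta.21335.2.A1_x_at (8.16), and just outside stood Ta.13860.1.S1_x_at (7.995), Ta.19530.1.A1_a_at (7.83) and Ta.19530.2.A1_x_at (7.78). Between 8-fold and 9-fold lay 14 members, and 22 probe sets with the same control brightness lay between 7-fold and 8-fold. At the control signal limit, Ta.13370.1.A1_at had 11588 and 11083 in heat, against 205 and 223 in control, and Ta.12225.3.S1_a_at had 7539.8 and 7308 in heat, against 206 and 289.6 in control. Both belonged. Ta.27661.2.S1_at (270.4 and 196 in control) and Ta.6123.1.A1_at did not.

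The named heat chaperones of the array lay on the other side of these limits. hsp16.9A, a small heat shock protein, had 19520.1 and 19269 in heat, against 197 and 189 in control, and missed the rule by its control signal. FKBP70, a peptidyl-prolyl isomerase that assists folding, had 41788 and 41076 in heat, against 5980.0 and 6028 in control, a ratio of 6.81 between the lower heat and the higher control value. These were the only tested genes matched by 14 lists of heat response genes written as patterns on symbols and synonyms, and both were called higher in limma. The list of dehydrins and LEA proteins matched 2 genes too dim to test. The other 11 lists matched no symbol or synonym: HSP70, HSP90, HSP100 and Clp, HSP60 and chaperonins, DnaJ and HSP40, heat shock factors, galactinol and raffinose synthesis, ubiquitin and proteasome, endoplasmic reticulum chaperones, DREB and ERF factors, and antioxidants. The patterns spell most enzymes in full and miss abbreviated symbols such as those for catalase. With symbols that are nearly all LOC numbers this says nothing of which such genes are on the array, and 0 members matched a list.

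The arrays of a group resembled each other. Over the tested probe sets the log2 signals correlated at 0.977 between the heat arrays and 0.979 between the control arrays, against 0.914 to 0.915 between groups, across probe sets that are no independent replicates. The median signal was 77.0 and 72.1 on the heat arrays and 82.7 and 79.1 on the control arrays. Of the leaf markers, 4 matched the annotation: PRK of the Calvin cycle, the rbcL gene for the large subunit of Rubisco, and OEE1 and OEE2 of photosystem II. Their signals were 41869 to 61145 in heat and 31570 to 46983 in control. In limma 3 of the 4 were called higher in heat, where 14.2% of all tested probe sets were. They were rbcL by log2 0.72 ± 0.07 SE (adjusted p = 0.000131), OEE1 by 0.35 ± 0.06 (0.00208) and OEE2 by 0.34 ± 0.06 (0.00320). PRK was not called (0.15 ± 0.07, 0.132). Very bright signals were more frequent in heat: 248 wheat probe sets exceeded 30000 on both heat arrays and 137 on both control arrays. Whether the leaf markers rose beyond this array-wide difference among bright probe sets was not tested. The summed signal of these leaf markers was 209613 and 203672 on the heat arrays, against 149575 and 166004 on the control arrays. Grain genes, as markers of another organ, matched 13 genes, with a summed signal of 8965 and 8767 in heat, against 8862 and 8956 in control. Most of it came from the avenin-like avnlb, at 7909 and 7725 in heat, against 7865 and 7975 in control. The other 12 grain genes lay between 1.27 and 281 in heat and between 1.55 and 321 in control. Of the 6 grain genes bright enough to test in limma, 0 were called and 0 had an unadjusted p below 0.05. The part of leaf or grain transcripts in the members' values was not tested.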

How the data were processed

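Total RNA of flag leaves was labelled with biotin and hybridised to single-colour arrays, per the labels' protocols. The deposited values are intensities (linear MAS5 signal) made by the authors with Affymetrix Expression Console 1.1 and MAS5, per the submitters' processing notes, with settings not given in the sources used here. Each array has a trimmed mean of 500.1 (lowest and highest 2% dropped), as scaled values do; the target is not stated, and the values are linear and not centred. No detection calls were used, and dim is not taken as absent; the number of arrays, not depth, limits precision.

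From 61290 probe sets, 111 AFFX and 64 RPTR controls were left out. Log2 intensity was fitted with limma 3.58.1 in R 4.3.3 (lmFit, eBayes with intensity trend), as heat minus control in a two-sided test adjusted by Benjamini-Hochberg at 0.05 over 30558 probe sets, those whose mean log2 signal was 6.11 or more (the median over all wheat probe sets). The fit had 2 residual and 5.45 prior degrees of freedom and was tested on simulated data. The members, lists and tests were chosen with earlier results of these data known. Named in the text are members with a gene symbol, the highest ratios, the brightest, those at the limits, those in clusters with 2 or more members and those with the widest replicates; other probe sets of member clusters were picked after their values were seen. Alternatives covered scaling, filter, moderation, shared probe sets, left-out arrays and the limits of the rule. Leaf and grain markers were matched by symbol or synonym, with the brightest probe set of each gene; the spelling of their patterns was set after values were seen. Promoter motifs were not analysed here.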

Additional observations from a re-analysis of the deposited data

Results flagged for a closer look

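Among the 64 reporter controls that the comparison leaves out, 1 (an _s_at probe set) was called higher when they were kept in the limma fit: it had 42539 and 43558 in heat, against 34402 and 37851 in control, at log2 0.25 ± 0.06 SE (adjusted p = 0.0121). It is listed because it lies outside the comparison and was brighter on the heat arrays than in control. Reporter controls called lower were not listed, and those below the brightness filter were not tested. No array control met the rule of the members.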

How the results depend on the processing

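The rule gave 100 probe sets under quantile normalization, 107 under cyclic loess, 109 with polyA spike scaling and 113 with median centring, and 99 of the 108 members met it under all 4. It gave 290 at 4-fold and 52 at 16-fold. With the control limit at 100 it gave 121, and at 400 it gave 76, which lost 32 members. With 1 array left out it gave 111 to 123. Leaving out an array can only loosen a rule on the lower and higher values, so those counts could not fall below 108. The median log2 difference of the members was 4.21 with median centring, 4.16 with spike scaling, 3.99 with an offset of 64 and 4.29 without shared probe sets, and 4.06 to 4.17 with 1 array left out. Members called numbered 108 to 108 with 1 array left out, 72 of 72 without shared probe sets and 107 with unmoderated t statistics (not Ta.14095.1.S1_at); the rule chose them for their gap on these arrays, so nothing is read from these counts. A fit without 1 array leaves 1 in its group, which is assumed to vary like the other group. Array-wide calls numbered 11329, against 2594 with unmoderated t statistics, 6996 without shared probe sets, where 21280 were tested, and 7615 to 10685 with 1 array left out; unmoderated statistics split them 1277 higher and 1317 lower. Of the other probe sets in member clusters, 19 of 34 were called higher with unmoderated t statistics, against 1277 of all 30558 tested. Without shared probe sets 16 of 18 were called higher, against 2659 of all 21280 tested. Same-numbered replicates share only a number (correlation of their deviations 0.012). With the replicate number as a block, 11604 of 30558 probe sets were called, 4458 of them higher. Among those higher were 108 members and 32 of 34 other probe sets of their clusters. Causes were not tested where the number tested does not show them. Background correction could not be varied on summarised MAS5 values, and the promoter motif alternatives were not run. The number of arrays, 2 per group, limits the precision of the folds.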
